A study of Mus musculus with 6 samples.

Results

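Tnf-expressing inflammatory macrophages (MΦs) of the mouse peritoneum were examined in single-cell RNA-seq data, and 229 of 2773 MΦs among 7665 cells kept were assigned to them. The cells were chosen by their own transcripts. A cell counted as a MΦ with 2 or more unique molecular identifiers (UMIs, counted transcript molecules) of Csf1r, Adgre1 and Fcer1g together, at most 2 of the B cell genes Cd79a and Cd79b, and at most 1 of the T and NK cell genes Cd3d, Cd3e and Nkg7. Members, called Tnf-high below, held 2 or more Tnf UMIs and at most 1 UMI of Fcrls, Irf4, Ocstamp and Dcstamp, genes of small peritoneal MΦs (SPMs). They were set against 1925 Tnf-negative MΦs, which held no Tnf UMI and passed the same limit on the SPM genes. The 281 MΦs with 1 Tnf UMI stood in between, and 31 MΦs with 2 or more Tnf UMIs were over the SPM limit and were not members.

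The cells came from lavage of C57BL/6 mice aged 8 to 12 weeks and were enriched by adherence for 1 h. Mertk+/+ and Mertk-/- mice, the latter carrying the MerKD allele of the efferocytosis receptor MerTK, each gave a control with a media change and cultures kept for 2 h or 6 h with apoptotic cells (ACs), which were UV-treated Jurkat cells, a human T cell line. Each of these 6 groups was 1 library, in which the cells of 3 mice were pooled, so no group had a replicate. The deposited table marks each cell with a library number from 1 to 6 that was not matched to a genotype or a time, and no comparison of genotypes or AC exposure is made here. Mertk was counted in both sets of MΦs in every library, at 12.5 to 39.7 CPM (counts per 1000000 UMIs) in Tnf-negative cells, and the genotype labels could not be checked from it because the library numbers were not matched.

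TNF is a cytokine that MΦs transcribe within minutes of sensing microbial products or tissue damage, before most other inflammatory genes. Its gene is switched on largely by NF-κB and by AP-1 and EGR factors downstream of MAP kinases, and its short-lived mRNA is removed by proteins such as tristetraprolin, encoded by Zfp36. NF-κB also induces its own inhibitors, among them IκBα (Nfkbia) and A20 (Tnfaip3), which limit the response. In the peritoneum, most resident MΦs are large peritoneal MΦs (LPMs), which depend on GATA6, and the remainder are monocyte-derived SPMs with high MHC class II.

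Tnf-high cells were found in all 6 libraries and made up a minority of MΦs in each. There were 77, 34, 21, 65, 15 and 17 such cells in libraries 1 to 6. As a share of MΦs this was 11.6% in library 1 (95% exact binomial interval 9.23 to 14.2), 9.71% in library 2, 9.33% in library 3, 9.42% in library 4, 4.62% in library 5 (2.61 to 7.50) and 3.29% in library 6 (1.93 to 5.21), and 8.26% over all (7.26 to 9.35). Libraries 5 and 6 had the lowest shares, although the interval of library 5 overlapped those of libraries 2, 3 and 4. They were also the shallowest, with a median of 3687 and 2861 UMIs per MΦ against 4595 to 6247 elsewhere. After every cell was thinned to 1500 UMIs, MΦs under the SPM limit with any Tnf UMI were 9.46%, 7.76%, 7.11%, 10.5%, 5.45% and 6.51% of MΦs in libraries 1 to 6, and these intervals overlapped between neighbours in the order. Intervals on single values cover counting error only, and since the libraries stand for different, unmatched conditions, their spread mixes condition, mice and library.

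**Figure D1:**
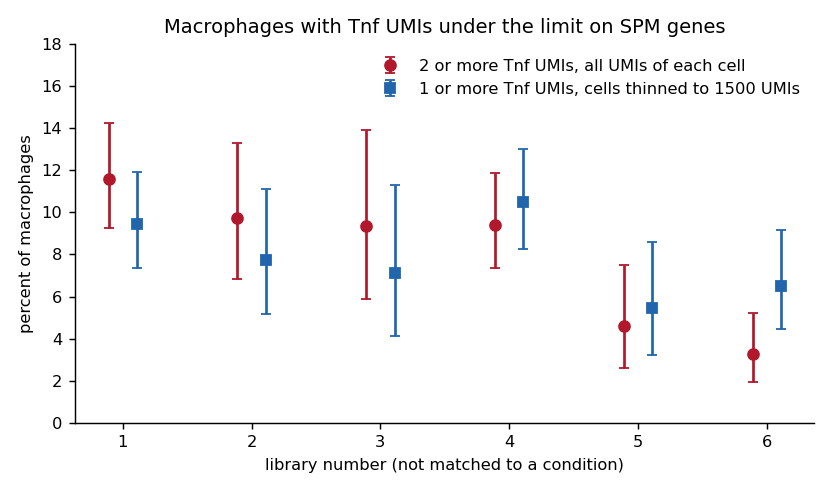
Percent of macrophages (y axis) in each library number (x axis) that were Tnf-high (red circles) or, with every cell thinned to 1500 UMIs, held any Tnf UMI under the same limit on SPM genes (blue squares). Percentages are of all macrophages, those over the limit on SPM genes included. Bars are 95% exact binomial intervals. The red points run from 3.29% to 11.6% and the blue points from 5.45% to 10.5%.

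Tnf (chr17:35199381-35202007, minus strand, GRCm38) was concentrated in few cells. Tnf-high cells held 1246 of the 1700 Tnf UMIs of all MΦs, or 73.3%, and the median member had 3 Tnf UMIs. By library this share was 80.2%, 80.0%, 50.9%, 81.4%, 54.4% and 38.4% in libraries 1 to 6. The highest cell of each library held 27, 17, 10, 49, 11 and 4 Tnf UMIs. Because the rule used Tnf, these values describe the members and are no result. Among the members, 77 lay just inside the threshold at 2 Tnf UMIs, while the 281 cells just outside it had 1. The share of cells with any Tnf UMI, at 1500 UMIs per cell, was 9.49% in MΦs under the SPM limit, 3.26% in B cells and 0.691% in T cells, the lowest of the 3 and taken as the upper limit of what free RNA gives. The median UMI counts before thinning were 4511, 5342 and 2740.5, and the unthinned shares were 20.9%, 11.03% and 2.01%.

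Csf1r and Fcer1g, which the rule used to admit cells to both sets, are given as a description only. Csf1r stood at 575 CPM in Tnf-high and 553 CPM in Tnf-negative cells, and Fcer1g at 1037 and 1040 CPM. None of 12 T and NK cell markers had a UMI in the 229 cells (1.06 to 47.2 CPM summed per library in Tnf-negative cells), but the rule itself capped 3 of them, Cd3d, Cd3e and Nkg7. The 12 B cell markers summed to 0 to 183 CPM in Tnf-high cells of the 6 libraries, against 20.6 to 78.5 CPM in Tnf-negative cells, and Ms4a1 was at 0. The rule capped Cd79a and Cd79b among these 12. The 10 neutrophil markers summed to 33.8 to 115 CPM in Tnf-high and 27.6 to 108 CPM in Tnf-negative cells. In the members 7 of them were at 0, S100a9 included, while Csf3r was at 52.1 CPM and S100a8 at 22.7 CPM. Of 8 mesothelial markers 7 were at 0, Msln and Wt1 included. The 8 monocyte markers were present at 356 to 790 CPM in Tnf-high and 280 to 538 CPM in Tnf-negative cells. Ly6c2 had 0 UMIs in the members and 18 in Tnf-negative cells. Hp, Plac8 and Chil3 were at 330, 37.4 and 20.7 CPM in the members and 194, 19.2 and 11.4 CPM in Tnf-negative cells. Ccr2 went the other way, at 2.67 and 14.7 CPM. In the comparison described below, the 6 monocyte markers tested had a median log2 ratio of 0.35, against -0.18 for all genes, with 4 above 0. Of 28 barcode sequences that occurred in more than 1 library, 2 were Tnf-high cells, and no member was called a doublet.

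Tnf-high cells carried more RNA molecules and more detected genes than Tnf-negative cells of the same library. Their median was 6297 UMIs against 4273 over all, and it was higher in 6 of 6 libraries, the smallest gap being 3453 against 2690 UMIs in library 6 and the largest 8126 against 5970 in library 1. The share of UMIs from mitochondrial genes was lower in the members in 6 of 6 libraries, for example 2.04% against 2.32% in library 4. A cell with more UMIs reaches the threshold of 2 Tnf UMIs more easily, so levels below are per 1000000 UMIs other than Tnf, and each comparison was repeated with Tnf-negative cells matched on UMI count.

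The comparison across genes asked which transcripts accompanied Tnf in the same cell. UMIs were summed over the cells of a set within each library, and the ratio of CPM was weighted over the 6 libraries, with a 95% interval for counting error. A gene was called when this ratio reached 2-fold and had the same direction in 6 of 6 libraries, among 6992 genes with at least 10 CPM. No p-value is given, because cells are not replicates, each condition had 1 library, and both sets were cut from the same cells by one of their own genes. Under this rule 52 genes were called higher in Tnf-high cells, which is 0.744% of the genes tested, and 95 were called lower, which is 1.36%. The median log2 ratio of all genes tested was -0.18, and ratios below are to be read against it. The genes called higher together took 4.84% of the members' UMIs and 1.48% of those of Tnf-negative cells. Centred on that median, the calls were 76 higher and 34 lower, and all 52 genes were among the 76.

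The other 4 inflammatory markers given for these cells were all higher in them in 6 of 6 libraries, a direction shared by 2.29% of all genes tested. They were given with earlier results of these data known, so their direction describes the members and is no independent result. These markers also count in the lists below, Il1b and Il6 as cytokines, Cxcl1 as a chemokine and Ptgs2 as an eicosanoid gene. Il1b encodes the pyrogenic cytokine IL-1β. It lies at chr2:129364570-129371139 on the minus strand and overlaps an antisense gene there. Its level per library was 879 to 4161 CPM in Tnf-high cells (median 2276) and 353 to 1835 CPM in Tnf-negative cells (median 696), a log2 ratio of 1.68 (1.63 to 1.74). The ranges overlapped between libraries, since the members of library 6, at 879 CPM, lay below the Tnf-negative cells of libraries 1, 2 and 3, but within each library the members were higher. Il6, which encodes the cytokine that drives the acute phase response, stood at 597 to 1338 CPM (median 685) in Tnf-high and 108 to 440 CPM (median 154) in Tnf-negative cells, with no overlap and a log2 ratio of 1.97 (1.86 to 2.09). Ptgs2, the inducible cyclooxygenase of prostaglandin synthesis, stood at 1111 to 1978 CPM (median 1410) against 243 to 604 CPM (median 302), again with no overlap, and its log2 ratio was 2.15 (2.07 to 2.23). Cxcl1, a neutrophil chemoattractant, stood at 355 to 1747 CPM (median 1310) against 101 to 363 CPM (median 224), a log2 ratio of 2.37 (2.28 to 2.46). Its lowest member value came from library 6 and was below the highest Tnf-negative value, that of library 1.

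**Figure D2:**
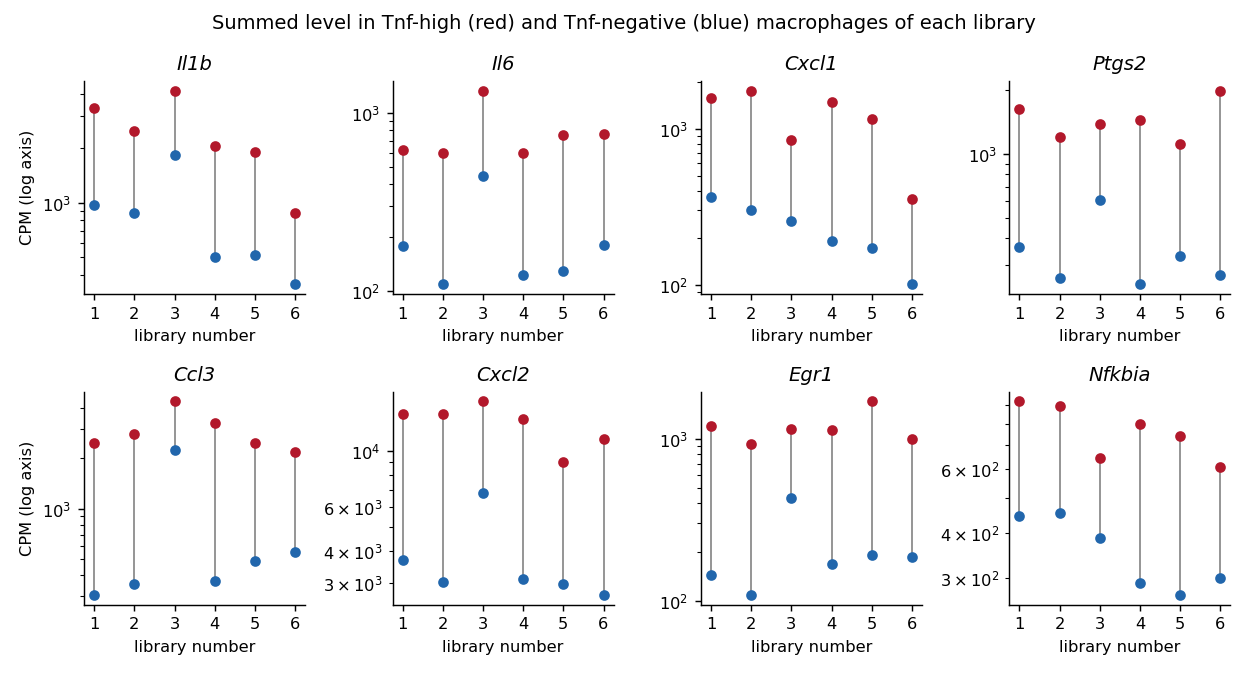
Level of 8 genes in CPM (y axis, log scale) in each library number (x axis), summed over Tnf-high cells (red) and Tnf-negative cells (blue), joined by a grey line. In all 8 genes the red point is above the blue point in 6 of 6 libraries.

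The markers also coincided in single cells. Of the 229 Tnf-high cells, 61.1% held UMIs of 3 or 4 of Il1b, Il6, Cxcl1 and Ptgs2, and 6.11% (14 cells) held none of them. Of the Tnf-negative cells, 16.7% held 3 or 4 and 37.0% held none. By library, the share with 3 or 4 was 68.8%, 61.8%, 66.7%, 60.0%, 53.3% and 29.4% in Tnf-high cells of libraries 1 to 6, against 26.8%, 18.1%, 28.8%, 13.8%, 10.9% and 6.34% in Tnf-negative cells. The members were higher in every library, and library 6, with 17 members and the fewest UMIs per cell, was lowest in both sets. With every cell thinned to 1500 UMIs the share was 3 of 15 Tnf-high cells in library 6 and 40.0% to 47.6% in the other libraries, against 3.42% to 16.0% in Tnf-negative cells. Single genes differed in how widely they were detected. Ptgs2 had a UMI in 81.2% of the members and Il1b in 76.0%, while Il6 and Cxcl1 each had one in 54.1%. B cells held these 4 genes in 0.0917% to 2.2% of cells.

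Levels of Ccl3, Il6 and Il1b were graded with Tnf. From 1 to 2, 3 to 4, 5 to 9 and 10 or more Tnf UMIs, the log2 ratio of Ccl3 over Tnf-negative cells was 0.96, 1.51, 2.17, 2.86 and 3.55. For Il6 it was 0.72, 1.54, 1.69, 2.08 and 2.77, and for Il1b 0.45, 1.43, 1.46, 1.72 and 2.28. The cells just outside the threshold were thus between Tnf-negative cells and members in each of these genes. Other genes rose less evenly. Csf3 was at 0.30 (-0.20 to 0.80), 1.58, 3.12, 2.85 and 3.15 over the same steps, and Ccl4 was at 0.83 with 1 Tnf UMI and 0.84 with 2. Gata6, the LPM transcription factor, was at -0.41 (-0.70 to -0.12) at 1 Tnf UMI and -0.29 (-0.80 to 0.22) at 2. It was at -0.80 at 10 or more, with wide intervals that overlapped throughout. Cells with more Tnf UMIs also had more UMIs in total, and the 33 cells with 10 or more came mostly from libraries 1 and 4, which had 14 and 13 of them.

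**Figure D3:**
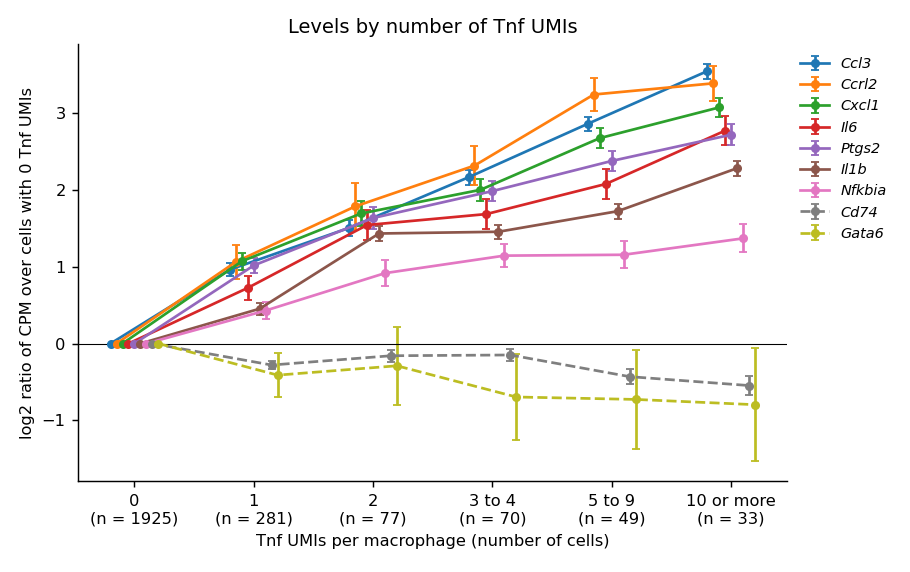
Log2 ratio of CPM over macrophages with 0 Tnf UMIs (y axis) for 9 genes, by the number of Tnf UMIs per macrophage (x axis, with the number of cells). Points are library-weighted ratios and bars 95% counting intervals. Ccl3 runs from 0.96 at 1 UMI to 3.55 at 10 or more. Gata6 (dashed) lies between -0.29 and -0.80 from 1 UMI on, and its interval at 2 UMIs includes 0.

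Cytokine genes were frequent among the calls. Of 15 cytokine genes tested, 5 were called higher and 0 lower, beside 0.744% and 1.36% of all genes tested, and the same 2 shares apply to each list below. The median log2 ratio was 0.98 against -0.18 for all genes, and 0.53 with no limit on SPM genes in Tnf-negative cells. Csf3, which encodes the granulocyte growth factor G-CSF, had the largest ratio of any called gene at 6.75-fold, a log2 ratio of 2.75 (2.45 to 3.06). It stood at 40.5 to 168 CPM per library in Tnf-high cells (median 112) and 4.58 to 37.3 CPM in Tnf-negative cells (median 20.5), without overlap, although only 14.8% of members held a UMI of it. Il1a, the alarmin IL-1α, had a UMI in 90.8% of members and a 4.76-fold higher level, and Inhba, an activin subunit, had a log2 ratio of 1.68 (1.34 to 2.02). Osm, which encodes oncostatin M, reached 0.98 (0.83 to 1.13) and was higher in 6 of 6 libraries, just under the 2-fold limit. Il1rn, the antagonist of the IL-1 receptor, had a log2 ratio of 0.02 (-0.05 to 0.09) at 1379 and 1532 CPM, and was higher in 3 libraries and lower in 3. Il10 was under the limit of 10 CPM and was not tested.

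Chemokine genes were divided. Of 16 tested, 5 were called higher and 0 lower, and the median log2 ratio was 0.13. The 5 were the neutrophil attractants Cxcl1, Cxcl2 and Cxcl3 and the CC chemokines Ccl3 and Ccl4. Cxcl2 stood at 9021 to 15679 CPM in the members and 2680 to 6795 CPM in Tnf-negative cells, and 99.6% of members and 83.1% of Tnf-negative cells held a UMI of it. Ccl3 was 5.41-fold higher, at 2181 to 4371 CPM (median 2630) against 305 to 2228 CPM (median 427), and the overlap came from library 3, whose Tnf-negative cells held 2228 CPM. Ccl2, the monocyte attractant, was not called, with 349 and 276 CPM and a higher level in 4 of 6 libraries. Cxcl13, a B cell attractant, was lower in 6 of 6 libraries, as were 9.73% of all genes tested, but under 2-fold, with a log2 ratio of -0.96 (-1.43 to -0.49). Ccrl2, a non-signalling receptor that binds chemerin, was not on the list and had the largest ratio after Csf3, at 135 to 633 CPM (median 423) against 13.8 to 98.7 CPM (median 52.8), or 6.72-fold, without overlap.

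Of 26 genes of the NF-κB system, 4 were called higher and 1 lower, and the 4 were Nfkbiz, Tnfaip3, Nfkbid and Nfkbia. Other regulators on the list, Nfkbib, Nfkbie, Bcl3 and Tnip1, had log2 ratios of 0.56, -0.03, -0.37 and 0.55 and were not called. Nfkbiz, which encodes the nuclear co-regulator IκBζ, was 5.54-fold higher, at 270 to 425 CPM against 30.8 to 87.5 CPM without overlap. Tnfaip3 was at 405 to 603 CPM against 147 to 247 CPM, a log2 ratio of 1.45 (1.32 to 1.57). Nfkbid (IκBNS) and Nfkbia had log2 ratios of 1.23 (1.07 to 1.40) and 1.13 (1.03 to 1.22), each without overlap between libraries. The subunits Nfkb1, Rel and Relb were higher in 6 of 6 libraries at log2 ratios of 0.26, 0.66 and 0.29 and were not called. The subunits Nfkb2 and Rela, at 0.65 and 0.57, were higher in 4 and 5 of 6 libraries and were not called either. Map3k14, the kinase of the non-canonical pathway, was the gene called lower, at -1.02 (-2.01 to -0.03), from 9 UMIs in the members, with 0 UMIs in 3 of their libraries, and it was no longer called with Tnf-negative cells matched on UMI count.

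The sequence before the transcription start was compared for the genes called, since these genes accompanied Tnf in the same cells. RefSeq windows (GRCm38.p6) of 250 bases before to 50 bases after the start were at hand for 38 of the 52 genes called higher and 71 of the 95 called lower. A short NF-κB motif written as GGGNNTTNC, searched on both strands, was in the windows of 13 of the 38 (34.2%), 12 of the 71 (16.9%), 19.99% of the genes tested and 17.1% of all 27025 genes in the table. The 13 genes were Ccrl2, Cxcl1, Cxcl2, Cxcl3, Ier3, Il6, Maff, Nfkbia, Nfkbid, Nlrp3, Ppp1r15a, Ralgds and Tnfaip3. The AP-1 motif TGANTCA was in 6 of the 38 (15.8%), against 6.75% of genes tested and 8.97% of all, and the CRE motif TGACGTCA in 5 of the 38 (13.2%), against 4.07% and 2.03%. The NF-κB motif was shortened after a longer form, with 1 more C at its 3′ end, had been counted. The longer form was in 9 of the 38 (23.7%), 8 of the 71 (11.3%), 6.70% of genes tested and 5.48% of all. The 3 motifs were counted separately, and their matches may overlap. A match is a description of letters and not a bound site, and genes with several windows count when any window matches. The 200 bases before the start are printed for Tnf and for 4 of the genes with the NF-κB motif, chosen because they cover a cytokine, chemokines and an inhibitor, with matches to the motif in capitals on either strand.
Tnf, chr17:35202008-35202207 (minus strand): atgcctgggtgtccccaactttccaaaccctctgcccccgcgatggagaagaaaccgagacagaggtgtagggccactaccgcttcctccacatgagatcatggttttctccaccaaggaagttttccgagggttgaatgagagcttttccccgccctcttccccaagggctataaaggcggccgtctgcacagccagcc
Il6, chr5:30012914-30013113 (plus strand): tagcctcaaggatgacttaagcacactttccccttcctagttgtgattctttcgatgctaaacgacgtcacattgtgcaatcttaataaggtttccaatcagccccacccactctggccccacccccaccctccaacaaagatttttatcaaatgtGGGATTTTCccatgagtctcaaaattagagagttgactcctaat
Cxcl1, chr5:90891045-90891244 (plus strand): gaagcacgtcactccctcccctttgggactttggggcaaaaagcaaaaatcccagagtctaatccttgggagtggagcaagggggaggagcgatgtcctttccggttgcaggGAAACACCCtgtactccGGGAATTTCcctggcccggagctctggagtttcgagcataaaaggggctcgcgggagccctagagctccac
Cxcl2, chr5:90903699-90903898 (plus strand): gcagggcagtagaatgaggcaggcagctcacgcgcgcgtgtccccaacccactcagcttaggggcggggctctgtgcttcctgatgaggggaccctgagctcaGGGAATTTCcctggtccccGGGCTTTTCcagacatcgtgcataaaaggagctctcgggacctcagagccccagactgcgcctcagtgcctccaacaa
Nfkbia, chr12:55492648-55492847 (minus strand): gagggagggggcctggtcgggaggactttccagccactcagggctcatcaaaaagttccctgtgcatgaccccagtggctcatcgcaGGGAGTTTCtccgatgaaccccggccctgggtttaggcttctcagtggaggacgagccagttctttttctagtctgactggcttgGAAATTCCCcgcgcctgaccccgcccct

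The first base of the match lay 44 bases before the start in Il6. Nfkbia, Cxcl1 and Cxcl2 each had a pair of matches, at 113 and 28 bases, at 88 and 71 bases and at 97 and 78 bases before the start. The 200 bases printed for Tnf held no match to these letters.

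Immediate early genes, which are transcribed without new protein synthesis, were, of the 30 lists examined, the list with the most calls. Of 28 tested, 12 were called higher and 0 lower, and the median log2 ratio was 1.05. Egr1, a zinc finger factor, stood at 933 to 1700 CPM in Tnf-high cells (median 1140) and 108 to 433 CPM in Tnf-negative cells (median 177), 6.47-fold higher without overlap. Nr4a1, a nuclear receptor without known ligand, had a log2 ratio of 1.89 (1.77 to 2.01), Maff, a small Maf factor, 1.69 (1.40 to 1.99), and Ier2 1.47 (1.34 to 1.59). The others called were Junb, Egr2, Ier3, Btg2, Csrnp1, Phlda1, Plk2 and Plk3, with log2 ratios of 1.02 to 1.45. Fos and Jun had log2 ratios of 1.09 and 1.07 but were higher in 5 of 6 libraries and so were not called.

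Genes that act on Tnf mRNA or on the TNF protein differed from each other. Of 16 genes of mRNA decay, 2 were called higher. Zfp36, whose product binds AU-rich elements of Tnf mRNA, stood at 919 to 1701 CPM (median 1261) against 471 to 746 CPM (median 631), a log2 ratio of 1.13 (1.06 to 1.2) without overlap. Zc3h12a, which encodes the endonuclease regnase-1, was at the 2-fold limit, with a log2 ratio of 1.00 (0.79 to 1.21), and its call was kept in 12 of 19 alternative settings. The related Zfp36l1 was at -0.22. Of 13 genes of TNF release and receptor signalling, none was called in either direction. Adam17, the protease that sheds TNF, stood at 92.1 CPM in Tnf-high and 93.4 CPM in Tnf-negative cells, and the receptor genes Tnfrsf1a and Tnfrsf1b had log2 ratios of -0.30 and 0.28. Cflar and Tnfaip2, both known as targets of NF-κB, were higher in 6 of 6 libraries at 0.83 and 0.97.

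**Figure D4:**
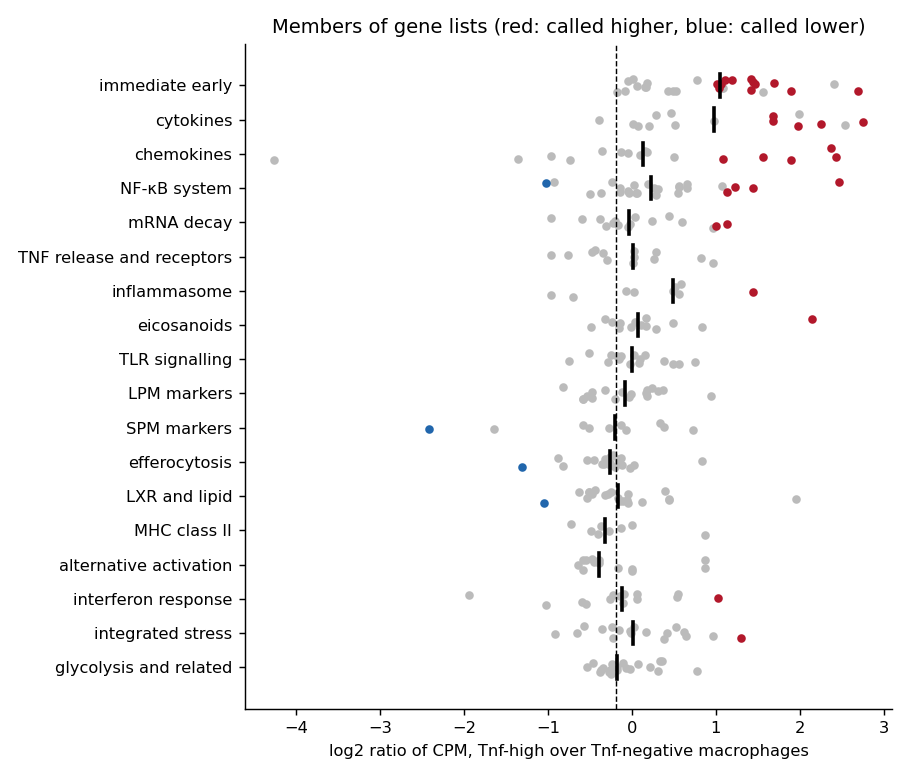
Log2 ratio of CPM, Tnf-high over Tnf-negative macrophages (x axis), for the tested members of 18 gene lists (y axis). Each point is a gene, red when called higher and blue when called lower; black bars are list medians and the dashed line is the median of all genes tested, -0.18. Red points number 12 of 28 in the immediate early, 5 of 15 in the cytokine, 5 of 16 in the chemokine and 4 of 26 in the NF-κB list.

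Other inflammatory effectors were represented by single genes. Nlrp3, the inflammasome sensor, was the 1 gene called of 9 on its list, at 453 to 613 CPM against 145 to 231 CPM without overlap, whereas the inflammasome genes Casp1 and Pycard had log2 ratios of 0.49 and -0.70 and were not called. Ptgs2 was the 1 gene called of 14 eicosanoid genes, and Ptgs1, the constitutive cyclooxygenase, was at -0.48. F3, which encodes tissue factor, the initiator of coagulation, was 5.19-fold higher, at 355 to 1061 CPM (median 635) against 53.9 to 560 CPM (median 107). The F3 ranges overlapped through library 3 again, where Tnf-negative cells held 560 CPM. Gem, a small GTPase, was 4.33-fold higher and Gm6377, a predicted gene that overlaps Sh3bgrl on the same strand, 3.89-fold higher. Irf1 was the 1 gene called of 14 interferon response genes, at 1.03 (0.75 to 1.31), and its call was kept in 11 of 19 alternative settings. Ppp1r15a, a stress-induced phosphatase subunit, and Gadd45a, a growth arrest gene, were called at 1.3 and 1.39, each the 1 call on its list of 18 and 17 genes. None of 7 NADPH oxidase genes was called.

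Of 16 genes of Toll-like receptor (TLR) signalling, which senses bacterial products, 0 were called, a count that the shares of all genes called, 0.744% and 1.36%, would also give. Cd14, the co-receptor for lipopolysaccharide, stood at 2812 CPM in Tnf-high and 2573 CPM in Tnf-negative cells, and Tlr4 at 58.7 and 58.3 CPM. Tlr2, which recognises bacterial lipopeptides, was higher in 6 of 6 libraries at a log2 ratio of 0.75 (0.61 to 0.89), under the 2-fold limit.

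Of 18 LPM genes, markers of resident identity, 0 were called, again near the shares of all genes, and the median log2 ratio was -0.08. Gata6 had a log2 ratio of -0.58 (-0.89 to -0.27) and was lower in 4 of 6 libraries, Klf2 was at -0.53 (-0.81 to -0.25), and Icam2 was at 0.18. Cd93, a receptor gene linked to clearance of dying cells, was lower in 6 of 6 libraries at -0.82 (-1.02 to -0.62). Of 8 MHC class II genes none was called and the median was -0.32, with Cd74, the invariant chain, at 2637 and 2891 CPM. Of 10 SPM genes, 1 was called lower, Ccr2, the receptor of monocyte recruitment, at 4 UMIs in the members and 133 in Tnf-negative cells. The Ccr2 call was lost with Tnf-negative cells matched on UMI count (log2 ratio -1.60), with Tnf at 1 or more UMIs and with a minimum of 50 CPM. The rule set its limit on 4 SPM genes for the members, and it was extended here to Tnf-negative cells. Without it there, the median log2 ratio was -0.63 for the MHC class II genes and -0.61 for the SPM genes, whose median was -0.20 with it, and 0.03 for the LPM genes.

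**Figure D5:**
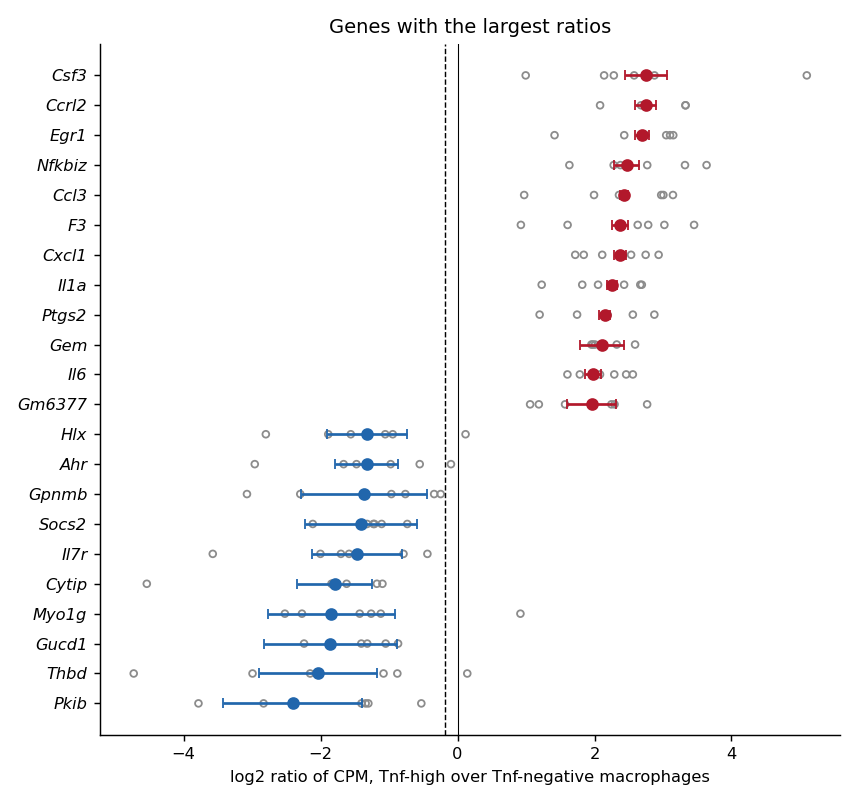
Log2 ratio of CPM, Tnf-high over Tnf-negative macrophages (x axis), for the genes with the largest ratios called higher (red) and lower (blue) by the naming rule, leaving out Ccr7 and Il4i1, which had 0 UMIs in Tnf-high cells. Filled points are library-weighted ratios with 95% counting intervals, open points the 6 libraries with 0.5 UMI added and the dashed line the median of all genes tested. The red genes lie to the right of 0 in every library, and the blue genes have wider intervals.

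The genes called lower were mostly of low abundance. Their median level was 17.1 CPM, against 208 CPM for the genes called higher, and 75 of the 95 had 0 UMIs in at least 1 library of Tnf-high cells, where a level cannot be anything but lower. A count of 0 allows up to 3 UMIs, which is 5.01 CPM in the deepest library of members (library 1) and 50.7 CPM in the shallowest (library 6). Among the 12 leading genes, Ahr, the aryl hydrocarbon receptor, was counted in all 6 libraries, at 4.94 to 41.1 CPM in the members (median 22.7) and 45.8 to 81.8 CPM in Tnf-negative cells (median 59.3), a log2 ratio of -1.33 (-1.79 to -0.87) without overlap. Cytip, a regulator of adhesion in leukocytes, had 28 UMIs in the members and 571 in Tnf-negative cells, a log2 ratio of -1.80 (-2.34 to -1.25), and was the 1 gene called lower in all 19 alternative settings. Pkib, Thbd, Gucd1, Myo1g, Socs2, Gpnmb and Hlx had 8 to 25 UMIs in the members and log2 ratios of -2.41 to -1.32. With Tnf-negative cells matched on UMI count, Pkib, Thbd, Myo1g and Gpnmb were no longer called. Their log2 ratios there were -2.24, -1.35, -1.40 and -0.91, so only Gpnmb fell under 2-fold. The call of Thbd was kept in 12 of 19 alternative settings, with a log2 ratio as small as -0.57. Il7r, the receptor of interleukin 7, was at -1.47 (-2.12 to -0.82).

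Ccr7 and Il4i1, genes that mature dendritic cells (DCs) express, had 0 UMIs in Tnf-high cells and 318 and 198 UMIs in Tnf-negative cells. The annotation places Il4i1 over part of Nup62 on the same strand, so its counts are less certain. These UMIs lay in few cells, 2.23% of Tnf-negative cells for Ccr7 and 2.44% for Il4i1. With 3 UMIs over the members as a floor, the summed level was 17.4-fold lower for Ccr7 and 10.8-fold lower for Il4i1. That floor takes UMIs as independent, and with UMIs held by so few cells it is no bound on the difference. Neither gene was called with Tnf-negative cells matched on UMI count, where the same floor gave log2 ratios of -3.74 for Ccr7 and -3.20 for Il4i1. Cells with a UMI of Ccr7, Flt3, Zbtb46, Xcr1 or Clec9a were 4.80% of members and 5.30% of Tnf-negative cells, and of these 5 genes Zbtb46 was the 1 with UMIs in the members. Without such cells, a setting added after the data were seen, 50 genes were called higher, 48 of them among the 52, and 78 lower, 61 of them among the 95. Ccl22, a chemokine of mature DCs, had 2.00 CPM in the members and 45.1 CPM in Tnf-negative cells but was higher in 1 library and was not called.

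Receptors and ligands for dying cells gave 1 call. Of 21 efferocytosis genes, 1 was called lower and 0 higher, and the median log2 ratio was -0.26, close to the -0.18 of all genes. The gene called was Axl, a relative of MerTK, at -1.31 (-2.20 to -0.42) from 11 UMIs in the members. Mertk was at -0.26 (-0.79 to 0.28). Of the 21 genes, 8 were lower in 6 of 6 libraries, as were 9.73% of all genes tested. These were Axl, Scarb1, Cd93, Lrp1, Pros1, Cd36, Msr1 and Rac1, and the 7 other than Axl had log2 ratios of -0.88 (Scarb1) to -0.26 (Rac1). Of 21 genes of liver X receptor and lipid handling, Abcg1, a cholesterol exporter, was called lower at -1.05 (-1.65 to -0.45), and its call was kept in 10 of 19 alternative settings. Arg1, an enzyme of alternative activation, was lower in 6 of 6 libraries at -0.40 (-0.46 to -0.34), and none of 13 genes of that list was called. Selplg, a selectin ligand, was called lower at -1.24, but not with Tnf-negative cells matched on UMI count (log2 ratio -1.10).

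The 31 Tnf-expressing MΦs over the SPM limit were compared by the share of cells with a UMI, as a description of a small set. Ccl3 was found in 90.3% of them and in 81.2% of Tnf-high cells, and Il1b in 67.7% and 76.0%. Il6 and Cxcl1 were each found in 12.9% of them and in 54.1% of Tnf-high cells, and Ptgs2 in 38.7% and 81.2%. Median UMI counts were 6344 and 6297. Gata6 was found in 0 of the 31 cells and in 22.7% of Tnf-high cells. Thinning to 1500 UMIs left Il6 at 9.68% against 35.0% and Cxcl1 at 9.68% against 45.1%.

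With Tnf-negative cells matched on UMI count, 58 genes were called higher, 43 of them among the 52, and 65 lower, 37 of them among the 95. In that comparison all 52 genes had a ratio above 1, the smallest at a log2 ratio of 0.76, and all 95 had a ratio below 1. The members were the same cells and the genes had been picked for their direction, so these signs were largely set beforehand. Across 19 alternative settings 20 genes were called higher in every setting, Il1b, Il6, Cxcl1 and Ptgs2 included. Of the 45 genes named from the calls, none changed direction between called higher and called lower in any of these settings. The settings share many cells and the genes were chosen for their direction, so this too was largely set beforehand. Of the 28 named genes called higher, the libraries of both sets did not overlap in 16, and of the 17 called lower in 7. The share without overlap was not counted over all genes tested. Since the named genes were chosen by their ratio and direction, these counts only describe them.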

How the data were processed

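Single-cell libraries were made with the 10x Genomics 5′ kit from adherent peritoneal cells, and the submitters' processing notes name Cell Ranger 2.2, Seurat 3.0 and the builds mm10 and GRCm38. The authors joined the 6 libraries in 1 table, whose deposited values are raw UMI counts per gene and cell with no normalization (55538 features, 7760 barcodes). Cells with fewer than 500 genes or over 10% mitochondrial UMIs were left out. From these counts, UMIs were summed per library and set, and ratios of CPM (per 1000000 UMIs), without Tnf in the total, were weighted over libraries (Mantel-Haenszel) with intervals for counting error (Python 3.11.15, numpy 2.4.6, scipy 1.17.1). The 13 features set aside from calls were Tnf and the other genes of the rule, and mitochondrial genes were set aside too. The ratios were tested on simulated data, in which some unchanged genes were called lower and none was called higher. Doublets were called per library with Scrublet (scanpy 1.11.5), which marked 68 barcodes (0.876%), and were kept. Depth per library was 59187 to 599499 UMIs in Tnf-high and 719975 to 2774851 UMIs in Tnf-negative cells. The intervals are for counting error, since groups had no replicates, and no p-value was computed.

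The rule for cells named no limit on SPM genes for the Tnf-negative set, and the same limit was applied to both sets. Genes named are the 5 markers, the 12 largest ratios called each way at 20 CPM or more in the higher set, and called or defining members of 30 gene lists. Of the genes that this rule selects, 1 called gene is not reported here. The members and lists were chosen with earlier results of these data known. Positions are from GENCODE vM21 (GRCm38). Whether counting used strand is not given in the sources used here.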

Additional observations from a re-analysis of the deposited data

How the results depend on the processing

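The 52 genes called higher numbered 42 to 76 under the other settings with the exception of Tnf at 1 or more UMIs, where 27 were called, 25 of them shared. The 95 genes called lower were less stable. Their number was 11 with Tnf at 1 or more UMIs, 290 with Tnf at 3 or more UMIs (4 libraries then counted), 34 with ratios centred on the median of all genes, 322 with no minimum level and 10 with a minimum of 50 CPM. Leaving out 1 library at a time gave 51 to 62 genes called higher and 128 to 168 called lower, the largest without library 1 (168) and library 4 (156), where 5 libraries instead of 6 have to share a direction. With no limit on the 4 SPM genes in Tnf-negative cells, 57 genes were called higher and 140 lower, of which 44 and 86 were shared. Members were 18.4% of MΦs at 1 or more Tnf UMIs and 2.90% when every cell was thinned to 1500 UMIs, and 7.21% to 9.40% with each library left out. In the 15 members of library 5 and the 17 of library 6, depth limits what can be seen, and the depth-matched setting kept 34 of the 45 named calls. No paired analysis was possible because each genotype and time was 1 library and library numbers were not matched to them. Tnf-high and Tnf-negative cells were compared within each library throughout.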

Other observations

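Genes of protein synthesis and energy supply were counted beside the 0.744% of all genes tested that were called higher and the 1.36% called lower, shares under which few or no calls would fall in lists of this size. Of 78 cytosolic ribosomal protein genes, 0 were called and the median log2 ratio was 0.07, and they took 12.5% of the UMIs of Tnf-high and 11.6% of those of Tnf-negative cells. Of 76 nuclear genes of the respiratory chain, 0 were called and the median was -0.13. None of 21 genes of glycolysis and related metabolism was called. Acod1, which makes itaconate, and Sod2, the mitochondrial superoxide dismutase, were higher in 6 of 6 libraries at log2 ratios of 0.77 (0.67 to 0.88) and 0.31 (0.24 to 0.38), both under 2-fold. Nos2, the inducible nitric oxide synthase, was under the limit of 10 CPM and was not tested.

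Survival and stress genes were mixed. Of 17 genes of the BCL2 family and cell death, Gadd45a was the 1 called. Mcl1, an anti-apoptotic gene, was higher in 6 of 6 libraries at 0.64 (0.55 to 0.73), and Bcl2l1, another, was lower in 6 of 6 at -0.92. Of 10 heat shock genes none was called, and Hspa8, a constitutive chaperone, was at 0.65 in 6 of 6 libraries. Of 15 cell cycle genes, 6 were tested and none was called, with Mki67, a marker of cycling cells, higher in 3 libraries and lower in 3.

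Some genes had large ratios that rested on part of the libraries and so were not called. Areg, which encodes amphiregulin, had a log2 ratio of 2.54 (2.13 to 2.95) and was higher in 3 libraries and lower in 3. Egr3 reached 2.41 (2.04 to 2.79) in 5 of 6 libraries, Csf2, the growth factor GM-CSF, 1.99 (1.54 to 2.44) in 4, and Ch25h, which makes 25-hydroxycholesterol, 1.96 (1.55 to 2.37) in 4. In Tnf-negative cells, library 3 held the most Il1b, Il6, Ptgs2, Ccl3, Ccl4, Il1a, F3 and Egr1 of the 6 libraries. It held 125 Tnf-negative and 21 Tnf-high cells, and what set it apart was not tested.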
